A study of Mus musculus with 4 samples.

Results

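Type 1 conventional dendritic cells (cDC1) of the mouse mammary gland were described in single-cell RNA sequencing of CD45+ cells, that is, of the immune cells of the gland. A cell counted as a cDC1 member when it held at least 2 UMIs (unique molecular identifiers, each standing for 1 captured RNA molecule) of Xcr1 and Clec9a together, at most 3 UMIs of C1qa, C1qb and C1qc, and no UMI of Cd3e, Cd3d, Cd3g, Cd79a, Ms4a1 or Ncr1. The rule found 379 members among 42781 cells, 0.886% of the cells, with 178 among 21604 cells in the earlier library (DR_MG_2021) and 201 among 21177 cells in the later library (DR_MG_2022). Because these genes chose the members, their levels are given as a description.

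cDC1 are the dendritic cells that take up dying cells and present their antigens on MHC class I to CD8 T cells, a route called cross-presentation. They depend on the transcription factors Irf8 and Batf3. Xcr1, the receptor for the chemokine Xcl1 made by NK cells and CD8 T cells, and Clec9a, a lectin that binds actin filaments exposed on dead cells, mark them. In the mouse mammary gland, as in other tissues, they lie beside a second conventional type, cDC2, and a Ccr7-bearing state of either type that migrates to the lymph node.

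Cells of several samples were combined in each library, called the earlier and the later pool below, and told apart by hash tags, antibodies that carry a short DNA barcode. The earlier pool held samples named Nulliparous (never pregnant), Gestation and Lactation. The later pool held Gestation, Lactation, Involution (the return of the gland after weaning), Regression, Balb/c (a mouse strain) and GF. In each library a further tag, HT2, is named Germ-free in the deposited sheets but disputed by the library titles, so its cells entered no fold change between names, and its values are given under the tag's own name. The sources used here do not state ages, how many animals share a tag, the strain of samples not named Balb/c, the days within a stage, or at which stage Balb/c and GF mice were taken. A sample below is 1 tag in 1 library, and the p-values rest only on the spread between such samples. In the main test of genes, the spread was taken from the trend over all genes tested, not from each gene alone. The designed tag sequences, 15 bases each, are shown because every sample value rests on them.
HT2 (named Germ-free in the sheets, disputed): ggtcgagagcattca
HT4 (Nulliparous): aaagcattcttcacg
HT5 (Gestation): ctttgtctttgtgag
HT6 (Lactation): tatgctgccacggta
HT8 (Involution): tatagaacgccaggc
HT9 (Regression): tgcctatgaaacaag
HT10 (Balb/c): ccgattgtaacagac
HT12 (GF): ctgcaaatataacgg

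Of the 379 members, 305 carried 1 tag, 46 more than 1 and 28 none. Doublet calls fell on 10 of the 379, and the 300 members with 1 tag and no doublet call were analysed by sample, 153 from the earlier pool and 147 from the later pool. The 11 samples held between 9 members (later Gestation) and 56 (earlier HT2), and between 93968 and 387773 UMIs. The median member held 3629.5 UMIs in the earlier pool and 7768 in the later pool, so the later pool measured each cell more deeply. The median count of a member's own tag ranged from 5 in later Lactation to 138 in Nulliparous. The libraries shared 139 cell barcodes among all cells kept, and 3 of the earlier and 4 of the later members were among the shared ones.

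The members carried the genes by which cDC1 are known. Levels are UMIs of a gene per 10000 UMIs of the members of a sample, and cDC2 and migratory dendritic cells served as references. They were chosen by their own genes (Cd209a and Mgl2, and Ccr7 and Fscn1) under the same exclusions as the members. The cDC2 cells also had to hold no UMI of Xcr1 or Clec9a, and any cell that met the cDC1 rule counted as cDC1. Xcr1 ranged from 3.20 to 5.41 over the 11 samples, with a median of 3.997, and Clec9a from 1.81 to 4.48, with a median of 3.12. Both genes, at chr9:123852315-123862029 and chr6:129408862-129424764 (GRCm38.p6), chose the members. Irf8, the factor that specifies the lineage, was at 18.8 to 25.3 with a median of 21.3, against 0.16 to 6.101 in cDC2 and 0.41 to 8.97 in migratory cells. The ranges did not overlap. Cadm1, an adhesion molecule that binds Crtam on activated T cells, ranged from 1.24 to 3.104 and was above cDC2 in 11 of 11 samples, although the ranges overlapped (0 to 1.32 in cDC2). Irf8 and Cadm1, which the rule did not use, were thus above cDC2 in every sample.

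**Figure D1:**
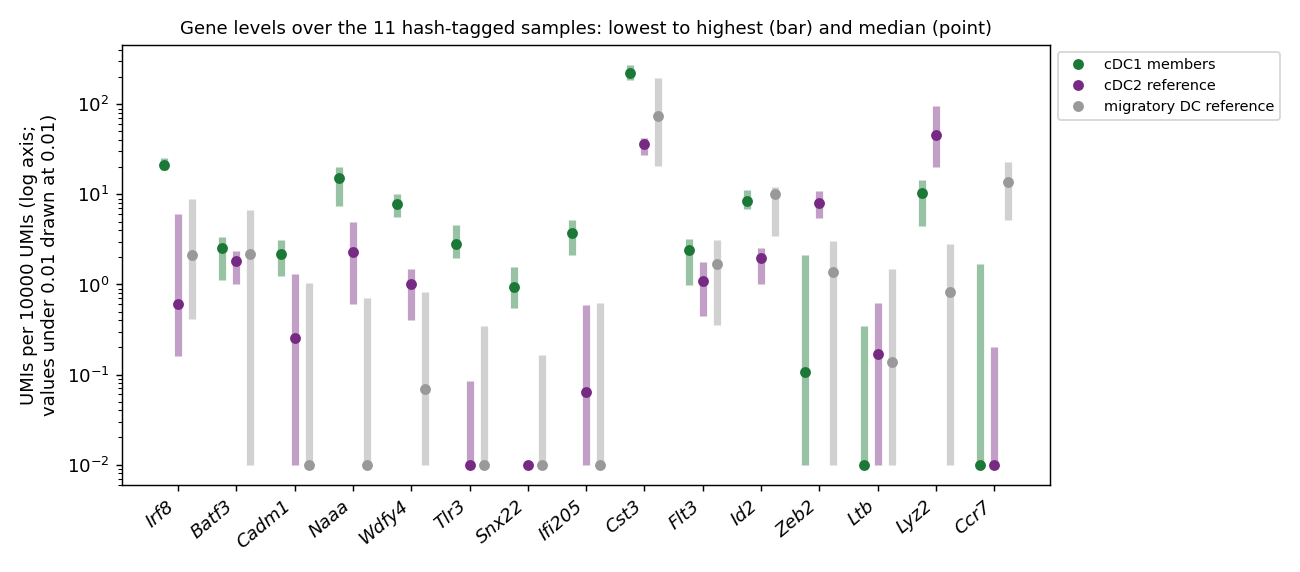
Levels of 15 genes in UMIs per 10000 UMIs (log axis) in the cDC1 members, the cDC2 reference and the migratory reference. Bars run from the lowest to the highest of the 11 samples and points are medians. Irf8, Naaa, Wdfy4, Tlr3 and Cst3 of the members lie above cDC2 without overlap, and Zeb2 lies below.

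A list of 40 cDC1 identity genes had 37 matched in the files, 35 of them outside the rule. Of these 35, 33 were higher in the members than in cDC2 in both libraries and 2, Zeb2 and Gpr141, were lower. For 19 of the 35 the members lay above cDC2 without overlap over the 11 samples. The matching shares over all genes were not counted, so the 33 and the 19 have no background to be judged against. The cDC2 reference held 7 to 92 cells per sample. Of the listed genes, 7 were at a level under 0.5 in both libraries. Antigen-handling genes were among the 19. Wdfy4, needed for cross-presentation, was at 5.57 to 10.1 against 0.41 to 1.48 in cDC2, and Naaa, a lysosomal lipid amidase, at 7.47 to 20.4 against 0.61 to 4.97. Tlr3, which senses double-stranded RNA of engulfed cells, was at 1.98 to 4.57 against 0 to 0.084 in cDC2, and Ppt1, a lysosomal thioesterase, at 8.67 to 13.6 against 0.15 to 0.94. Ifi205 was at 2.15 to 5.17 against 0 to 0.59. Snx22 and Gcsam had no UMI in any cDC2 sample and ranged from 0.54 to 1.57 and from 0.61 to 1.60 in the members.

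Other lineage genes differed in how far they separated the cells. Batf3, the partner of Irf8, was at 1.12 to 3.35 in the members, 1.01 to 2.32 in cDC2 and 0 to 6.76 in migratory cells, so it overlapped with both. Id2, which represses the plasmacytoid program, was at 6.81 to 11.2 against 1.01 to 2.57 in cDC2 but 3.45 to 12.1 in migratory cells. Zbtb46, a factor of conventional dendritic cells, was at 0.43 to 1.64 against 0 to 0.39 in cDC2. Flt3, the receptor for the growth factor of all dendritic cells, overlapped with both references. Zeb2, a factor of the cDC2 and monocyte lineages, was at 0 to 2.15 in the members and 5.47 to 10.9 in cDC2.

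Surface genes that mark particular cDC1 populations were sparse. Itgae (CD103), the integrin chain of cDC1 in barrier tissues, ranged from 0.07 to 1.65. Cd8a, carried by cDC1 of lymphoid organs, ranged from 0 to 1.18 and had no UMI in 3 samples. Cd207 (langerin) and Plet1 had no UMI in 8 of 11 samples each. Cd24a was at 4.11 to 6.06 and Btla, an inhibitory receptor, at 1.11 to 1.98, both above cDC2 without overlap. Sirpa, Clec10a, Itgam and Irf4, picked from a list of 14 cDC2 genes, were at most 0.42 in any cDC1 sample, each below its lowest cDC2 sample. The rest of the list is not compared with cDC2 here. Klf4 had 13 to 74 UMIs in the cDC1 samples, and Cd209d had 30 in Regression, all in 1 cell. The whole list, led by Klf4 and Cd209d, summed to 1.31 in GF at the low end and 6.47 in Regression at the high end. In Regression 1 cell held 47.3% of it.

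Over all 2274 genes with at least 30 UMIs in the members of each library, 30 genes (1.32%) were at least 10 times higher than in all other tagged cells in both libraries, and 16 of the 30 were on the identity list. Snx22 led them, at 41.8 times in the earlier pool and 65.8 times in the later pool. Among genes off the list were Gm43914, Gpr141b, Dbn1 (an actin-binding protein), Fam149a, Mycl (a Myc family factor of dendritic cells), Tnni2, Anpep, Pak1 and Cxcl9, the chemokine that draws CXCR3-bearing T cells. Cst3, the cysteine protease inhibitor cystatin C, was at 188 to 276 in the members and 27.3 to 42.8 in cDC2. In the other direction 15 genes (0.66%) were at least 3 times lower than in cDC2 in both libraries. They included S100a4 (20.3 and 15.2 times lower), Ccl6 (7.82 and 7.71 times), S100a6, Mt1, the lysozyme Lyz2 (3.57 and 5.20 times) and Fcer1g.

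Promoter sequences of these genes, from RefSeq on GRCm38.p6 and covering 250 bases before to 50 after a start, were searched on both strands for 3 motifs. These were the AP-1 motif TGANTCA that Batf factors can bind, a pair of GAAA blocks with any 2 bases between them that Irf factors can bind, and a joined form with GAAA directly before TGANTCA, which contains the AP-1 motif. Of the 30 genes, 24 had an entry, with 26 promoters. AP-1 stood in 2 of the 26 (7.69%, against 7.81% of all 32851 promoters), the Irf pair in 3 (11.5%, against 3.44%) and the joined form in 1 (3.85%, against 0.125%). The joined match was in a promoter of Zbtb46, 61 bases before the start, and the Irf pairs were in Ifi205, Gpr141b and Tlr11. With 26 promoters these shares are descriptions of the letters in these windows. The promoters of Xcr1 and Clec9a, which define the members and held no match, are shown with 3 that held one, with the matches in capitals. The Zbtb46 start lies inside the gene (chr2:181371009-181493262).
Xcr1, chr9:123861980-123862279, minus strand: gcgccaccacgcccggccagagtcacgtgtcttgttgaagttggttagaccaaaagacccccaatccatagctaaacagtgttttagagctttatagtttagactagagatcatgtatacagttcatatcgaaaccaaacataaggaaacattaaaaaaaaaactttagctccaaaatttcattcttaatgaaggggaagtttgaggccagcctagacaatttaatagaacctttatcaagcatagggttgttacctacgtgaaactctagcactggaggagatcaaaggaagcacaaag
Clec9a, chr6:129408612-129408911, plus strand: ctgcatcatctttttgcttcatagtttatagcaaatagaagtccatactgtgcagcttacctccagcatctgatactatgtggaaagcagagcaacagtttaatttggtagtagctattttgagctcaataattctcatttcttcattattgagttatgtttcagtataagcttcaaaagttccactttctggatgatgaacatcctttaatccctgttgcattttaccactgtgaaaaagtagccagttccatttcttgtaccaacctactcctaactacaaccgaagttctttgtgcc
Zbtb46, chr2:181424339-181424638, minus strand: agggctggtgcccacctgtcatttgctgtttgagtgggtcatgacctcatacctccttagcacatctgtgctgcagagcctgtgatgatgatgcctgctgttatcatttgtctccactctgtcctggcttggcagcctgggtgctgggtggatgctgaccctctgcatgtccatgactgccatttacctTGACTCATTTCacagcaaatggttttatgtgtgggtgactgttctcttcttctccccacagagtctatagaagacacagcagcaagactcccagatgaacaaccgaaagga
Tlr11, chr14:50357664-50357963, plus strand: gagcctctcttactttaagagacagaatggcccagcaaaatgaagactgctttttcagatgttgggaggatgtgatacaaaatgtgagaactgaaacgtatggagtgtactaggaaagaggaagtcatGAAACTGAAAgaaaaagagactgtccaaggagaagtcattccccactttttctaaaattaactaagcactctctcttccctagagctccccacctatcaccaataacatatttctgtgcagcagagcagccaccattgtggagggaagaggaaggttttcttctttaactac
Ifi205, chr1:174031706-174032005, minus strand: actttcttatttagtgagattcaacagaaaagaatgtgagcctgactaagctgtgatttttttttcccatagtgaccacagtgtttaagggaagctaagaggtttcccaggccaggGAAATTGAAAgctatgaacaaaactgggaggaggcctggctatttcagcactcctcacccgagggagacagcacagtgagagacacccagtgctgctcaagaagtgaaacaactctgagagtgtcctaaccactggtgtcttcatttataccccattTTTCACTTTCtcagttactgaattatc

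Values on either side of the threshold were compared as a description. In the earlier pool the 118 cells with 1 UMI of Xcr1 and Clec9a and none of the excluded genes beyond the limits had Irf8 at 17.3, the 69 members with exactly 2 UMIs at 21.2, and the 14 with at least 6 at 22.6. In the later pool the same groups, of 105, 37 and 80 cells, had Irf8 at 9.99, 19.6 and 19.6. Tlr3 in the later pool was at 0.67, 1.72 and 3.004, Cadm1 at 0.76, 1.16 and 2.41, and Naaa at 4.15, 10.03 and 17.3. Unlike Irf8, these genes were higher in the members with at least 6 UMIs than in those with 2. Cells just outside the rule in the later pool also held Cd209a of cDC2, at 2.38 against 0.32 in the members with 2 UMIs. Siglech and Tcf4, genes of plasmacytoid dendritic cells, were at 3.1 and 6.76 in these outside cells. They were at 2.37 and 5.3 in the members with 2 UMIs and at 0.012 and 0.95 with at least 6. Plasmacytoid cells also express Irf8, so its equal levels in the later pool do not show equal cDC1 identity. In the earlier pool Siglech and Tcf4 were at 0.91 and 1.49 outside and at 0.039 and 0.43 with 2 UMIs. A further 246 cells had at least 2 UMIs of Xcr1 and Clec9a but held too many UMIs of an excluded gene, and 56.0% (earlier pool) and 56.1% (later pool) of them carried more than 1 tag, against 8.99% and 14.9% of the members.

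As a background, the share of cells with at least 2 UMIs of Xcr1 and Clec9a was counted in classes that should lack them. It was 0.156% of 4491 T cells (median depth 1538 UMIs) and 0.290% of 1378 B cells (929.5 UMIs) in the earlier pool, and 0.125% of 5609 T cells (3053 UMIs) and 0.130% of 3086 B cells (2035 UMIs) in the later pool. In macrophages it was 0.833% and 1.20%. Of the members, 280 held UMIs of both genes, 47 held none of Xcr1 and 52 none of Clec9a.

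A small group of members in the later pool carried genes of plasmacytoid dendritic cells (pDC), the interferon-producing cells marked by Siglech and Tcf4. At least 2 Siglech UMIs were found in 12 of 201 members of the later pool and 0 of 178 of the earlier pool, and 10 of the 12 had no Xcr1 UMI, so they met the rule through Clec9a. In these 12 the levels were 13.1 for Siglech, 25.1 for Tcf4, 29.9 for Ly6c2 and 7.36 for Klk1, against 0.04, 1.07, 0.62 and 0.01 in the other 189. Naaa was at 0.72 against 16.01, Tlr3 at 0.12 against 2.84, Wdfy4 at 0.84 against 7.78 and Cst3 at 41.9 against 234, while Irf8, which pDC also express, was at 25.9 against 19.5. Siglech chose the 12 cells, so its difference was fixed by that choice. By Tcf4, Ly6c2, Klk1, Naaa, Tlr3, Wdfy4 and Cst3 the 12 cells go against the label. By sample, 3 of the 13 Balb/c members were in this group, 1 each of Involution, Regression and HT2 of the later pool, and the other members of the group had no single tag or were doublet calls. The pDC list summed to 27.6 in Balb/c and 1.17 to 6.09 in the other 10 samples. Without the 12 cells it was 5.26 in Balb/c and 1.17 to 3.51 in the others. The share of cDC1 in Balb/c, given below as 0.659%, was 0.507% without them.

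**Figure D2:**
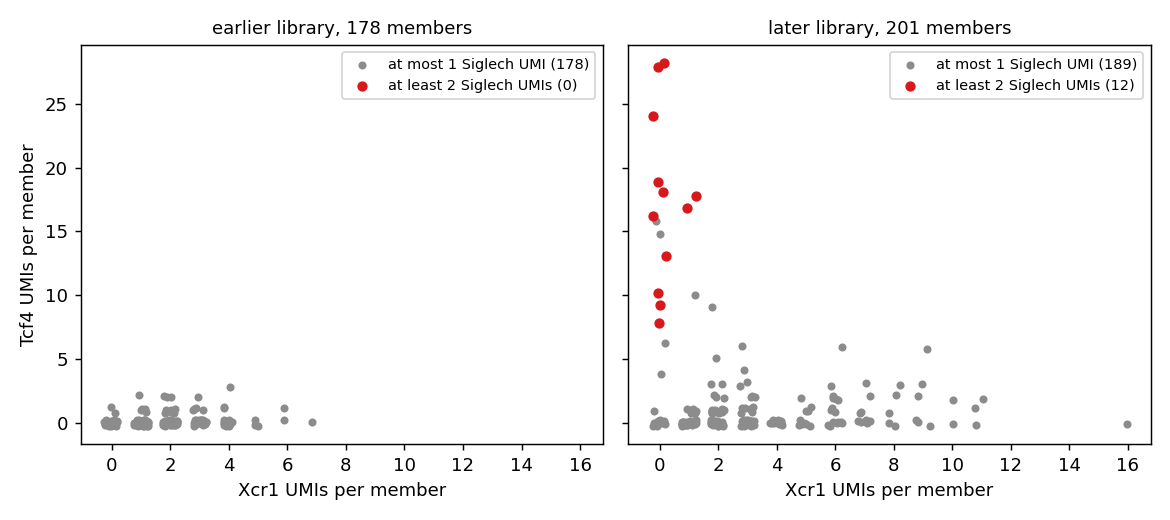
Tcf4 UMIs against Xcr1 UMIs of each cDC1 member by library, with small random offsets so that points do not hide each other. Red points are members with at least 2 Siglech UMIs, 0 in the earlier pool and 12 in the later pool, and 10 of these lie at 0 Xcr1 UMIs.

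Markers of other cell types were also measured. The macrophage list (led by Lyz2 and Apoe) was at 7.13 to 19.1 and the monocyte list (led by Lyz2 and Ccr2) at 14.5 to 33.1 over the 11 samples. From Gestation to Lactation the macrophage list was at 14.2 and 19.0 in the earlier pool, with 40.4% of the latter in 1 cell, and at 8.94 and 11.4 in the later pool. The monocyte list was at 20.4 and 26.4 and at 16.1 and 19.2, so both lists were higher in Lactation in each library, as Ifi27l2a was. The lists of T cell (0.13 to 1.63), NK and innate lymphoid (1.06 to 4.33) and red blood cell genes (at most 0.31) were low in all 11 samples. The B cell and plasma list was at 11.8 to 12.8 in the earlier pool and 3.60 to 5.84 in the later pool. The T, NK and B cell lists hold genes that the rule set to 0. The macrophage list holds the C1q genes that the rule capped. The sums of these lists were thus partly fixed by the rule. The milk, epithelial and stroma list was at 38.5 in Nulliparous, 86.9% of it in 1 cell, and at 2.02 to 16.6 elsewhere. The neutrophil and mast list was at 5.15 in Nulliparous, all in 1 cell, and at most 0.34 elsewhere. The part of these markers in the results below was not tested.

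cDC1 made up between 0.270% and 3.01% of the cells of a sample. In the earlier pool they were 0.675% of Nulliparous cells (38 of 5633, exact binomial 95% interval 0.478 to 0.925), 0.658% of Gestation (29 of 4409, 0.441 to 0.943) and 1.24% of Lactation (30 of 2422, 0.837 to 1.76). In the later pool they were 0.270% of Gestation (9 of 3328, 0.124 to 0.513), 1.66% of Lactation (13 of 783, 0.887 to 2.82), 0.992% of Involution (22 of 2218, 0.623 to 1.498), 0.669% of Regression (16 of 2391, 0.383 to 1.08), 0.659% of Balb/c (13 of 1972, 0.351 to 1.13) and 0.942% of GF (20 of 2123, 0.576 to 1.45). As sequenced, Lactation had the highest share of the named samples in each library. With each cell thinned to 1000 UMIs earlier Lactation (0.275%) was the lowest of its library's named samples, and later Lactation (0.130%) was below Involution, Balb/c and GF. These intervals cover counting error only.

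**Figure D3:**
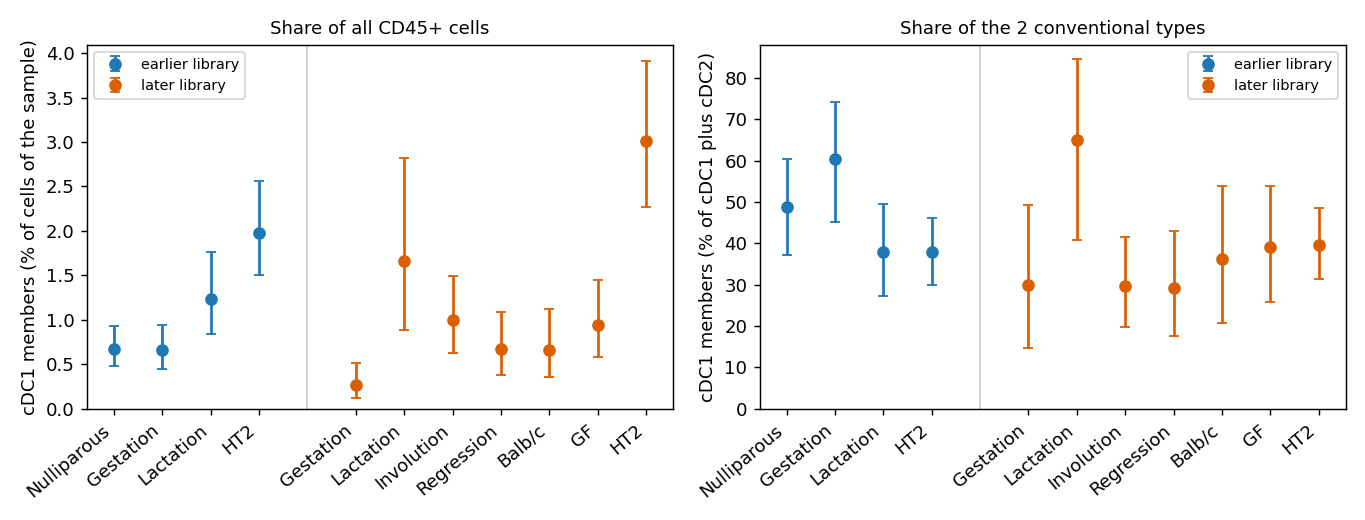
cDC1 members as a percent of all cells of a sample (left) and of cDC1 and cDC2 together (right), by hash-tagged sample and library, with exact binomial 95% intervals as bars. Lactation lies above Gestation in both libraries on the left, but below it in the earlier pool and above it in the later pool on the right.

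Lactation against Gestation was the only stage comparison with a sample in each library. The share was 1.88 times higher in Lactation in the earlier pool and 6.14 times in the later pool. The later ratio was 3.31 with at least 1 UMI of the marker genes. It was 3.81 with tags called by the top tag ratio, on 6 members among 558 later Lactation cells instead of 13 among 783. With each cell thinned to 1000 UMIs the later ratio was 1.42 and the earlier ratio 0.897. As sequenced, edgeR's quasi-likelihood test with the library as a block gave a log2 difference of 1.61 (SE 0.88, n = 2 samples per stage, adjusted p = 0.303 over 8 cell classes), which did not pass 0.05. Without the earlier Gestation sample, and without the block, the difference was 2.36 (adjusted p = 0.00667). With each cell thinned to 1000 UMIs it was -0.036 (adjusted p = 0.944), on 9 and 6 members of the earlier pool and 3 and 1 of the later pool.

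Measured among the conventional dendritic cells alone, the libraries moved in opposite directions as sequenced. cDC1 were 60.4% of cDC1 and cDC2 in earlier Gestation (95% interval 45.3 to 74.2) and 37.97% in earlier Lactation (27.3 to 49.6). They were 30% in later Gestation (14.7 to 49.4) and 65.0% in later Lactation (40.8 to 84.6). The other named samples lay between 29.1% and 48.7%. The difference between the libraries was not tested.

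One gene rose in cDC1 of Lactation: Ifi27l2a, an interferon-inducible gene (chr12:103433873-103443680, GRCm38.p6). It was at 4.90 (54 UMIs) in Gestation and 16.03 (194 UMIs) in Lactation of the earlier pool, and at 2.55 (24 UMIs) and 8.59 (94 UMIs) in the later pool, with no overlap between the stages. The share of members with a UMI was 48.3% and 86.7% in the earlier pool and 66.7% and 84.6% in the later pool. Over the 4 sums edgeR's quasi-likelihood test gave a log2 fold change of 1.67 (SE 0.34, n = 2 samples per stage, adjusted p = 0.00148), with 1.69 in the earlier pool and 1.71 in the later pool. It was the only call among 1485 genes tested (0.0673%). No gene was called lower, and 56 had an unadjusted p under 0.05.

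The call depended on the setting. It was lost in 8 of 13 other settings, where the log2 fold change stayed between 0.99 and 2.81, and DESeq2 called 0 genes, with 2 at an unadjusted p under 0.05. It was lost without the Lactation sample of the earlier pool (0.99, adjusted p = 0.991) and without the Gestation sample of the later pool (1.19, adjusted p = 0.900). In each Gestation sum 1 cell held most Ifi27l2a UMIs (61.1% in the earlier pool, 70.8% in the later pool), and without the top cell of every sum the value was 2.81 (adjusted p = 0.0983). The later sums held 9 and 13 members, under the 20 set as a minimum. The gene was already known from previous results of these data to be higher in Lactation, so its direction here is not independent. It has a close paralog, Ifi27l2b, which had no UMI in any cDC1 sample.

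Over all 11 samples Ifi27l2a in cDC1 was lowest in earlier HT2 (0.87), followed by Nulliparous (2.00), later Gestation (2.55) and Regression (3.27). It was highest in earlier Lactation (16.03) and Balb/c (13.9), followed by later Lactation (8.59), Involution (6.80), GF (6.53), later HT2 (5.49) and earlier Gestation (4.90). The Poisson 95% intervals of neighbours in this order overlapped, apart from those of Balb/c and later Lactation (11.8 to 16.2 and 6.94 to 10.52). Such intervals treat UMIs as independent and leave out the spread between cells and between samples. In Balb/c 1 cell held 40 of the 162 UMIs, and in later Lactation 1 cell held 22 of the 94. In other classes, cDC2 were at 10.1 and 21.9 in Gestation and Lactation of the earlier pool and at 12.1 and 25.9 in the later pool, and macrophages at 5.68 and 15.9 and at 11.2 and 21.1. In NK cells it was at 0.82 and 2.06 and at 1.14 and 1.32, and in T cells at 3.60 and 4.97 and at 5.17 and 6.11. B cells were higher in Lactation in the earlier pool (7.61 and 11.4) and lower in the later pool (5.86 and 4.46).

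**Figure D4:**
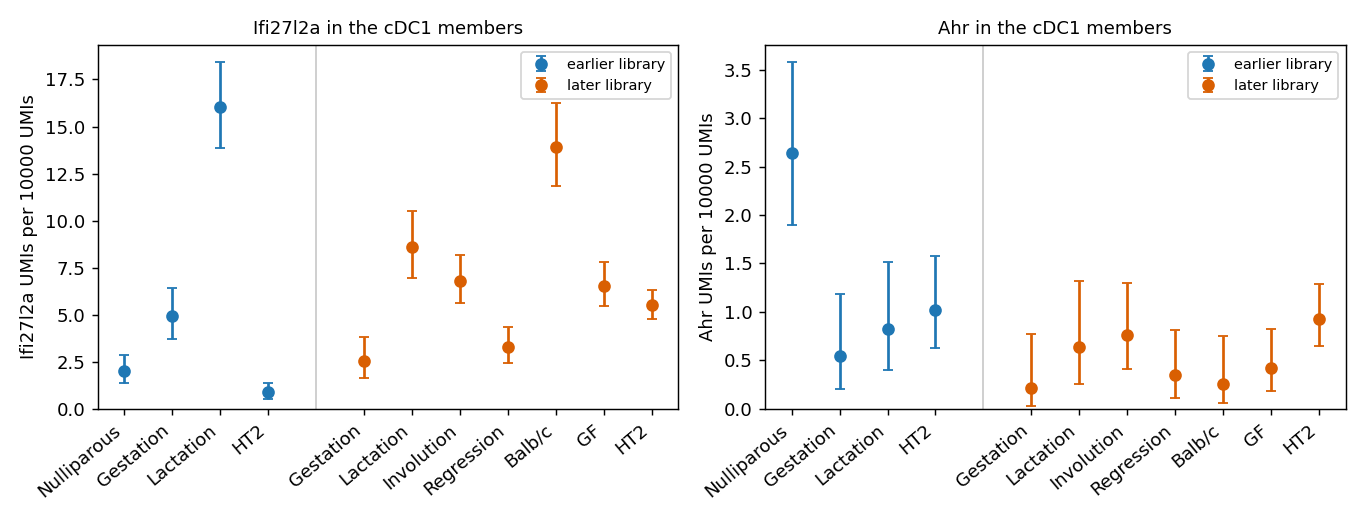
Ifi27l2a (left) and Ahr (right) in UMIs per 10000 UMIs of the cDC1 members by sample and library, with exact Poisson 95% intervals as bars. Ifi27l2a is higher in Lactation than in Gestation in each library, and Ahr is at 2.64 in Nulliparous and at most 1.02 elsewhere.

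The other interferon-stimulated genes did not pass the test: 13 of the 41 on the list were tested, 1 was called and the median log2 fold change was 0.19, against a median of -0.00 over all genes tested. Ifitm3, an antiviral membrane protein, was at 3.08 and 8.60 in Gestation and Lactation of the earlier pool and at 1.92 and 2.74 in the later pool (edgeR log2 fold change 1.02, SE 0.39, adjusted p = 0.901). No member was called in the lists of cDC1 identity (25 tested, median -0.01), cross-presentation and antigen handling (11, -0.20), MHC class I (8, 0.09), MHC class II (10, -0.09), chemokine receptors and adhesion (8, -0.17), lipid handling (6, 0.05) or immediate early genes (17, -0.07). In the cell cycle list 11 of 13 tested genes had a negative estimate (median -0.35), against 745 of all 1485 genes tested. But only 1 of the 13 went the same way in both libraries, against 751 of the 1485. Cenpf, a centromere protein, was at 2.00 and 1.74 in the earlier pool and at 3.30 and 0.18 in the later pool, with 90.3% of the UMIs of later Gestation and 54.5% of those of earlier Gestation in 1 cell. Prlr, the prolactin receptor, had no UMI in any of the 9 named samples.

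The remaining names had 1 sample each, so their values have no replicate check. Each was set against the pooled other named samples of its library, over genes with at least 30 UMIs. The genes furthest apart by at least 2-fold are described with exact Poisson 95% intervals, which treat UMIs as independent.

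In Nulliparous cDC1, Ahr, the receptor for dioxin and dietary indoles (chr12:35497979-35534989), was at 2.64 (1.90 to 3.58) against 0.69 (0.40 to 1.12) in Gestation and Lactation, 3.82 times higher. It was also above every other sample, the next being earlier HT2 at 1.02. Nr4a2, an orphan nuclear receptor of the immediate early class, was at 1.42 against 0.39, and Epb41l2 had the same values. Atf4, the factor of the amino acid stress response, was at 1.74 against 0.69, and Skil, a repressor of TGF-beta signalling, at 1.22 against 0.52. Unlike Ahr, these genes other than Epb41l2 were higher in some later samples. Nr4a2 was at 2.23 in Regression, and Atf4 and Skil were at 1.96 and 1.37 in later HT2. Ifi27l2a was the furthest in the other direction, at 2.00 (1.36 to 2.83) against 10.7 (9.43 to 12.1). Resf1, Gng12, the chemokine Ccl6 and the lysosomal protein Lamp1 were 3.49 to 4.53 times lower. In all, 1.77% of 1526 genes were at least 2-fold higher and 4.46% at least 2-fold lower.

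In Involution cDC1 the genes of cell division were low. Mki67, a marker of cycling cells, was at 0.29 (0.10 to 0.68) against 3.12 (2.70 to 3.57), 10.6 times lower. Top2a, the topoisomerase of dividing cells, was at 0.12 (0.014 to 0.42) against 2.69 (2.31 to 3.12), on 2 UMIs, and Hist1h2ap at 0.059 against 2.38, on 1 UMI. Pclaf, a PCNA-binding protein, had no UMI among 22 members and was at 2.34 in the others, at least 13.3-fold lower by a floor of 3 counts. Higher were Bach1, a heme-regulated repressor (1.11 against 0.32), Kdm6b, a histone H3K27 demethylase (1.35 against 0.40), Fam193a, Tars and Cd300c2. Of 3714 genes, 2.13% were at least 2-fold higher and 8.59% lower.

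The whole cell cycle list was also low there. Its sum was 9.49 per 10000 UMIs in Involution (8.09 to 11.1), the lowest of the 11 samples, and 91.1 in later Gestation, the highest, with 30.8% of the latter in 1 cell. It was 62.2 in earlier Lactation against 29.4 in earlier Gestation, and 34.1 in later Lactation, where 1 cell held 55.8% of it. In Balb/c (45.9) and Regression (37.2) 1 cell held 55.7% and 40.0%. In single cells, the share of members with an Mki67 or Top2a UMI was 36.7% in earlier Lactation (11 of 30, 95% interval 19.9 to 56.1) against 20.7% in earlier Gestation and 15.8% in Nulliparous. In the later pool it was 44.4% in Gestation (4 of 9), 38.5% in Lactation (5 of 13), 55.0% in GF (11 of 20), 23.1% in Balb/c, 18.8% in Regression and 18.2% in Involution. With each cell thinned to 2000 UMIs these were 37.9%, 13.8% and 11.4% in the earlier pool and 33.3%, 30.8%, 30%, 7.69%, 6.67% and 4.76% in the later pool, and 6 members of the named samples were too shallow. The 95% intervals of every pair of named samples overlapped, apart from Nulliparous (6.02 to 31.3) and GF (31.5 to 76.9) as sequenced.

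**Figure D5:**
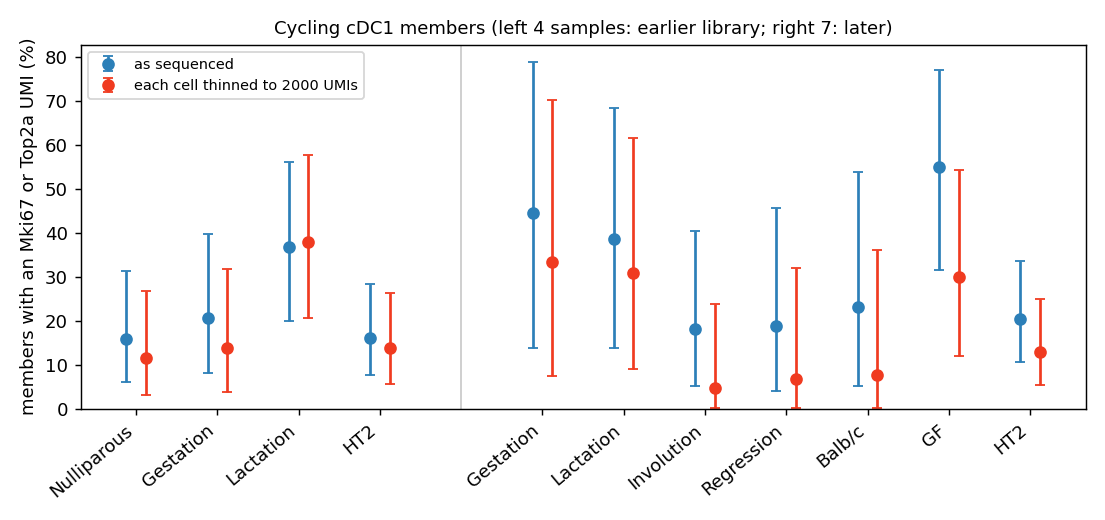
Share of cDC1 members with an Mki67 or Top2a UMI by sample, as sequenced and after each cell was thinned to 2000 UMIs, with exact binomial 95% intervals as bars. After thinning, Involution is lowest at 4.76% and earlier Lactation highest at 37.9%.

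In Regression cDC1, immediate early genes, which respond within minutes to stimulation or handling, were high. Egr1 was at 7.73 (6.36 to 9.30) against 2.35 (2.00 to 2.74), Nr4a1 at 4.25 against 1.39 and Dusp1, a MAP kinase phosphatase, at 5.99 against 2.29. Irf1, an interferon-gamma response factor, was at 0.97 against 0.29. The whole immediate early list summed to 84.0 in Regression, 80.7 in later HT2 and 70.5 in Involution, and to 40.9 to 55.0 in the other 8 samples. It holds genes that tissue digestion induces, and that part was not tested. Gsk3b and Tes were low, on 2 and 3 UMIs. The maturation list summed to 22.6 in Regression, with 70.8% of it in 1 cell. At least 2-fold higher were 1.86% of 3714 genes and lower were 8.51%.

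Ccr7 and Il12b were held by few members, while Cd83 and Nfkb1, the most abundant genes of the maturation list, had UMIs in 16.7% to 66.7% and 21.4% to 92.3% of the members of a sample. At least 2 UMIs of Ccr7, the receptor that takes dendritic cells to the lymph node, were found in 2 members of the earlier pool and 5 of the later pool, and Il12b, a subunit of IL-12, was at 1.09 in earlier Gestation, 91.7% of it in 1 cell, and at most 0.08 elsewhere. Cxcl9 was unevenly held: 152 of the 182 UMIs of GF lay in 1 member, and all 98 of Balb/c in 1 member. Any Cxcl9 UMI was found in 1 to 11 members of a sample. These were 11 of 38 in Nulliparous, 3 of 9 in later Gestation, 5 of 20 in GF and 1 of 22 in Involution.

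The gene furthest above the other samples in Balb/c cDC1 was H2-Ea. H2-Ea, the alpha chain of the MHC class II molecule I-E, which mice of the b haplotype such as C57BL/6 do not make, was at 38.2 (34.7 to 41.9, 445 UMIs) in Balb/c and at 0.028 (0.003 to 0.102, 2 UMIs) in the pooled other named samples of the later pool. The reference annotation, built on C57BL/6J, lists it as a transcribed pseudogene (chr17:34341952-34344645). It was also at 33.3 in Balb/c cDC2, 27.8 in macrophages and 11.2 in B cells, at 0.39 in T and 0.66 in NK cells, and at most 0.13 in any of these classes of every other sample. Of the other class II genes, counted on that reference, H2-Ab1 was at 56.3 (52.0 to 60.7) in Balb/c and at 75.7 to 87.8 in the other 10 samples, and H2-Eb1 at 46.1 against 52.5 to 68.2. The class I gene H2-K1 was at 5.50 (4.23 to 7.02) against 7.99 to 12.5. H2-Aa, at 74.9, lay within the range of the others. Reads of all samples were counted on mm10, per the submitters' processing notes, and the part of sequence differences between strains in these levels was not tested.

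Since Balb/c held 445 of the 447 H2-Ea UMIs of the named samples in the later pool, H2-Ea was also among the genes furthest below the pooled others in Involution, Regression and GF, and Gm15772 in Regression and GF. Further differences of Balb/c were Gm15772, at 9.53 with no UMI in the other named samples of the later pool and 2 in HT2 (at least 225-fold higher by a floor of 3 counts), and Tpm3-rs7, a copy of the tropomyosin gene Tpm3, at 2.32 against 0.042 on 3 UMIs. Rpl26 and Rpl29, ribosomal protein genes, were 15.5 and 8.80 times lower, and Ly6e 9.54 times lower (0.945 against 9.01). Apobec3, an antiviral deaminase, and Tgfbi were on 1 UMI each in Balb/c, at 1.86 and 1.79 in the others. Ribosomal protein genes and Tpm3-rs7 have near-identical copies in the genome, so their counts are uncertain. Mef2c, a transcription factor, was at 4.72 against 0.86, 5.49 times higher. Without the members with at least 2 Siglech UMIs, Mef2c was 5.54 times higher and Ly6e 18.1 times lower. Of 3714 genes, 6.46% were at least 2-fold higher in Balb/c and 5.49% lower.

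In GF cDC1, Upf2, a factor of RNA surveillance, was at 0.94 (0.56 to 1.49) against 0.27 (0.16 to 0.43), 3.51 times higher, and Alms1, Qpct, Bbx and Add3 were 2.60 to 3.12 times higher. Cybb, the catalytic chain of the phagocyte NADPH oxidase, had no UMI among 20 members and was at 1.04 in the others, at least 6.64-fold lower by the floor of 3 counts. Cybb also had no UMI in later Lactation, Nulliparous, earlier Gestation and earlier HT2. Cd300c2 and Runx2 were low, on 2 and 1 UMIs. Without the members with at least 2 Siglech UMIs, Cybb in the others was at 0.40 and the difference at least 2.53-fold, and Runx2 was 1.37 times lower, under the 2-fold rule. At least 2-fold higher were 2.4% of 3714 genes and lower were 4.85%.

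Antigen presentation genes were measured in all 11 samples. The MHC class II list summed to 310.5 in Balb/c and 323 in Nulliparous at the low end and 452 in Involution at the high end. The invariant chain Cd74 was at 90.4 to 114 in the earlier pool and 119 to 195 in the later pool, without overlap between the libraries. The MHC class I list summed to 33.6 to 40.7 in the earlier pool and 39.0 to 58.5 in the later pool. Malat1, a nuclear long RNA, was at 291 to 382 in the earlier pool and 154 to 268 in the later pool. Fold changes were therefore taken within a library, or with the library in the model, and orders over all 11 samples, which cross the libraries, are descriptions.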

How the data were processed

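UMI counts of genes and counts of tags were used as deposited by the authors for 2 pooled libraries (10x 3' v3.1, per the labels' protocols). The submitters' processing notes name Cell Ranger 6.1.0 and mm10, and the earlier gene matrix names Cell Ranger 4, per the file headers. Cells with at least 500 UMIs, 300 genes and at most 10% mitochondrial UMIs were kept. Tags were called with HTODemux (Seurat 5.3.0, quantile 0.99), and doublets with Scrublet (scanpy 1.11.5), which marked 7.83% and 6.87% of cells, were removed. Samples were named by the deposited sheets. Tag HT4 totalled 1 count in the later library, which leaves Nulliparous in the earlier one alone. Libraries were matched on 55253 gene symbols.

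UMI counts of the members were summed per sample and tested with edgeR 4.0.16 (quasi-likelihood, TMM, filterByExpr, Benjamini-Hochberg over all genes tested, threshold 0.05), with the library as a block because the samples of a library were pooled and sequenced together. The estimated prior degrees of freedom were infinite. Cells per class were tested likewise with the cells of a sample as library size. SE was the absolute log2 fold change divided by √F. The fit was run on simulated counts with 1 common spread and no difference between libraries. It recovered 22 of 90 genes changed 2-fold (24.4%) and 74 of 84 changed 4-fold (88.1%). It also called 4 unchanged genes, among 1524 tested. Most 2-fold changes would thus be missed. Names with 1 sample got no test: up to 5 genes on each side, at least 2-fold apart, with no cell holding over 25% of the UMIs, were named, apart from 1 gene that is not reported here. Genes named as identity, list or Lactation examples beyond these rules were chosen after their values were seen. The members and gene lists were chosen with earlier results of these data known. The alternatives are DESeq2 1.42.0, no block, no TMM scaling, no filter, other thresholds, tag calls and doublet handling, thinning, and leaving out samples or top cells.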

Additional observations from a re-analysis of the deposited data

Results flagged for a closer look

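In the earlier library cDC1 made up 22.4 percentage points less of the conventional dendritic cells in Lactation than in Gestation (-22.4), and in the later library 35.0 points more. The libraries moved in opposite directions, on 1 sample per stage each, and the difference was not tested.

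Glycam1, a mucin of milk and of lymph node vessels, was at 4.26 and 0.58 UMIs per 10000 in Gestation and Lactation cDC1 of the earlier library (log2 -2.69) and at 0.64 and 0.91 in the later library (log2 0.46). The directions were opposite and the difference was not tested. In earlier Gestation 1 cell held 78.7% of its UMIs.

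cDC1 were 1.98% of the cells on tag HT2 in the earlier library (56 of 2826) and 3.01% in the later library (54 of 1795), above every named sample of the same library. The name of this tag is disputed, and its cells entered no fold change between names.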

How the results depend on the processing

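With Lactation set against Gestation, the count of called genes was 1 with doublet calls kept, with at least 3 Xcr1 and Clec9a UMIs and, chosen after seeing the data, with all 11 samples in the fit. It was 0 with no replicate block (the library left out of the model), no TMM scaling, no filter on low counts, the top tag ratio, DESeq2, or without the top cell of each gene and sum. It ran from 1 to 4 when 1 sample was left out, which also leaves out the block. Without the earlier Gestation sample Ifi27l2a, Hist1h2ap and H2ac8 were called, without the later one Csn1s2a, Glycam1, Csn1s1 and Hist1h2ap, without earlier Lactation Cxcl9, Cenpf, Igkc and Igha, and without later Lactation Ifi27l2a alone. Hist1h2ap went in opposite directions, at -2.01 without the earlier and 7.10 without the later Gestation sample. Ifi27l2a was called with adjusted p from 0.00157 to 0.047 in 5 of 13 alternatives, had a positive log2 fold change in all 13, and its adjusted p reached 0.999. The planned fit of samples with at least 20 cells left no residual degree of freedom and could not be fitted. With 1 sample left out, Ifitm3 ran from -0.069 (without the Lactation sample of the earlier library) to 1.77 and Glycam1 from -2.68 to 0.29 (without the Gestation sample of the earlier library).

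For the cDC1 share, Lactation minus Gestation was 1.58 with no replicate block (adjusted p = 0.139), -0.036 with cells thinned to 1000 UMIs, and 1.09 to 2.36 when 1 sample was left out, 2.36 (adjusted p = 0.00667) without the Gestation sample of the earlier library. In the later library the difference in percent of cDC1 and cDC2 turned to -3.08 points in thinned cells. The cause was not tested.

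Shares of single samples moved beyond their intervals with the threshold. With at least 1 UMI they were 1.05% in Nulliparous, 1.18% in earlier Gestation, 1.98% in earlier Lactation, 3.15% in earlier HT2, 0.541% in later Gestation, 1.67% in Involution, 1.52% in Balb/c and 4.01% in later HT2. With at least 3 they were 0.408%, 0.702% and 1.17% in Gestation, Lactation and HT2 of the earlier library. Thinned to 1000 UMIs, which leaves fewer UMIs to pass the same threshold, they were 0.295% in Nulliparous, 0.306%, 0.275% and 0.849% in Gestation, Lactation and HT2 of the earlier library, and 0.0914%, 0.13%, 0.277%, 0.159%, 0.241% and 0.581% in Gestation, Lactation, Involution, Balb/c, GF and HT2 of the later library. Regression had 0 of 2309 cells, which by 3 counts allows a share of up to 0.13%. Without members with at least 2 Siglech UMIs, chosen after seeing the data, no share left its interval.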
